A study of Rattus norvegicus with 12 samples.

Results

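Fatty acid uptake and oxidation were followed in the rat left ventricle through 35 genes, chosen by symbol as the transporters, enzymes and regulators of this route. Of 15715 genes with a symbol on the array, all 35 had a probe. All 35 were among the 11211 genes tested, and each was well above background on 12 of 12 arrays, so the filter on dim probes removed none. The study asked how restricting salt affects the heart in a rat model of metabolic syndrome. RNA from the left ventricle of male Sprague-Dawley rats was labelled with Cy3 and hybridised to 12 Agilent arrays of 1 colour, with 3 arrays for each of 4 groups. Every rat ate a diet with 60% fructose for 8 weeks, with either 0.64% NaCl (normal sodium) or less than 0.01% NaCl (low sodium). Rats on each diet were either infused subcutaneously during the final 4 weeks with 200 ng/kg/min of angiotensin II (AngII, a hormone that raises blood pressure), or not infused. A group is named by its diet, followed by "with AngII" where the rats were infused. The fructose diet was common to all 4, so none is a group on a standard diet, and the age of the animals is not given in the sources used here.

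The adult heart draws much of its ATP from long-chain fatty acids. Lipoprotein lipase frees them from circulating triglyceride, membrane and cytosolic carriers bring them in, and acyl-CoA synthetases trap them as acyl-CoA. The carnitine shuttle carries the acyl groups into mitochondria, where each turn of beta-oxidation removes an acetyl-CoA and hands electrons to the respiratory chain. The nuclear receptor PPAR-alpha and its coactivator PGC-1-alpha switch on many of these genes, and pyruvate dehydrogenase kinase 4 holds back glucose oxidation when fatty acids are burned.

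Levels are log2 signals relative to the 75th percentile of each array, so a level of 0 equals that percentile, and levels of different genes are not compared because probes differ in brightness. Values of a group are listed for replicates 1, 2 and 3 in that order. Errors given with ± are standard errors of limma's moderated linear model, with 3 arrays in each group. Separate animals are not named in the labels, so p-values measure the spread between these samples. In whole ventricle, fewer cells of a type and less RNA per cell cannot be told apart.

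The 75th percentile lay between 855.8 and 1237.4 intensity units per array, the local background was between 20 and 29.5, and no spot was saturated. The arrays came from 3 slides. A slide held the arrays of 1 replicate number, 1 per group, and a group's position did not vary between slides, so position and group cannot be told apart. Replicate 1 of normal sodium stood apart, with 88 non-uniform spots (0 to 3 on any other array) and an array weight of 0.245 (0.553 to 4.08 on any other). Where leaving it out moved a difference described below by over 1.5 times, both values are given for the larger differences. Cardiomyocyte markers (9 of 10 tested) were well above background on 12 of 12 arrays, and their summed level overlapped between all groups, at 10.78 to 11.13 on normal sodium, 10.97 to 11.06 with AngII, 10.84 to 11.07 on low sodium and 10.77 to 11.04 on low sodium with AngII. Fat cells also express many of the 35 genes. Of their markers, leptin (Lep) was well above background on 0 of 12 arrays, adiponectin (Adipoq) and resistin (Retn) on 1, Cidec on 2 and Cfd on 12, and of the brown fat markers Ucp1 on 0 and Cidea on 12. Cfd read 0.17 to 0.92 on low sodium and 0.43 to 0.73 on low sodium with AngII, against 0.78 to 1.29 and 0.88 to 1.08 on normal sodium without and with AngII. Macrophage markers (8 of 8 tested) were lower on the low sodium diet, with a summed level of 3.48 to 4.14 on low sodium and 3.58 to 3.81 on low sodium with AngII, against 4.01 to 4.16 and 3.85 to 4.19 on normal sodium without and with AngII. Fibroblast markers (7 of 8 tested) summed to 5.84 to 5.97 on low sodium and 5.89 to 6.06 on low sodium with AngII, against 6.14 to 6.28 and 6.26 to 6.37 on normal sodium without and with AngII. Red cell markers (3 of 4 tested) summed to 6.37 to 6.82 on normal sodium without AngII and 7.18 to 7.45 with it, and to 6.56 to 7.08 and 6.76 to 6.97 on low sodium without and with AngII. Endothelial markers (7 of 8 tested) were lower on low sodium in 7 of 7 both without AngII (median -0.22) and with it (-0.29), with overlapping summed levels (4.81 to 5.62 on normal sodium, 5.13 to 5.20 with AngII, 4.80 to 5.24 on low sodium and 4.97 to 5.16 on low sodium with AngII). Without AngII, 1 macrophage, 3 fibroblast and 2 endothelial markers were lower on low sodium without overlap (6% of all probes). With AngII these counts were 6, 3 and 3 (10.4% of all probes). Smooth muscle markers (5 of 5 tested) were higher on low sodium without AngII in 5 of 5 (median 0.52), 3 of them without overlap (4.91% of all probes). With AngII on normal sodium, 4 of these 5 were also higher (median 0.58), 2 of them without overlap (6.17% of all probes). Their summed levels were 4.74 to 5.0 on normal sodium, 4.96 to 4.99 with AngII, 4.99 to 5.04 on low sodium and 4.82 to 5.06 on low sodium with AngII. Skeletal muscle markers (4 of 4 tested) lay in the same directions as most of the 35 genes, higher on low sodium without AngII in 4 of 4 (median 0.22) and lower with AngII on low sodium in 4 of 4 (-0.25), and none separated the groups. Their summed level was -1.43 to -0.63 on normal sodium, -1.43 to -1.14 with AngII, -1.12 to -0.92 on low sodium and -1.48 to -0.73 on low sodium with AngII. Atrial markers (3 of 4 tested) summed to 7.44 to 7.76 over all arrays, with overlap of all groups. This sum mostly reflects Myl4 (mean level 7.6), since Sln (0.18) and Myl7 (-0.96) were far dimmer. Taken singly, 2 of 3 were higher on low sodium without AngII (median 0.84) and 3 of 3 with it (1.02). None separated the groups in either contrast. The part of these cell types in the differences below was not tested.

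No difference in any of the 35 genes passed limma's adjusted threshold of 0.05 in any contrast. Over all 20020 probes tested, 0 passed (0%) for AngII on normal sodium, for AngII on low sodium, for low sodium without AngII, for low sodium with AngII, for both mean effects and for the interaction. With limma's array weights, 3 probes passed for AngII on low sodium and 150 for low sodium with AngII, and neither set held the probe of any of these genes. Leaving out replicate 1 of low sodium, 9 probes passed for AngII on normal sodium, again with none of these genes among them. The differences below are therefore given as values, beside the share of all probes that met the same description.

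Most of the 35 genes stood highest in the low sodium group. The per-array median of their deviations from the 12-array mean was 0.12, 0.15 and 0.08 on low sodium. It was 0.02, -0.08 and -0.02 on normal sodium, 0.00, -0.05 and -0.05 when AngII was added to that diet, and 0.00, -0.09 and -0.05 on low sodium with AngII. The 3 low sodium arrays thus lay above the other 9, by more than the pooled standard deviation of 0.04 between arrays of a group, and the other 3 groups overlapped.

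**Figure D1:**
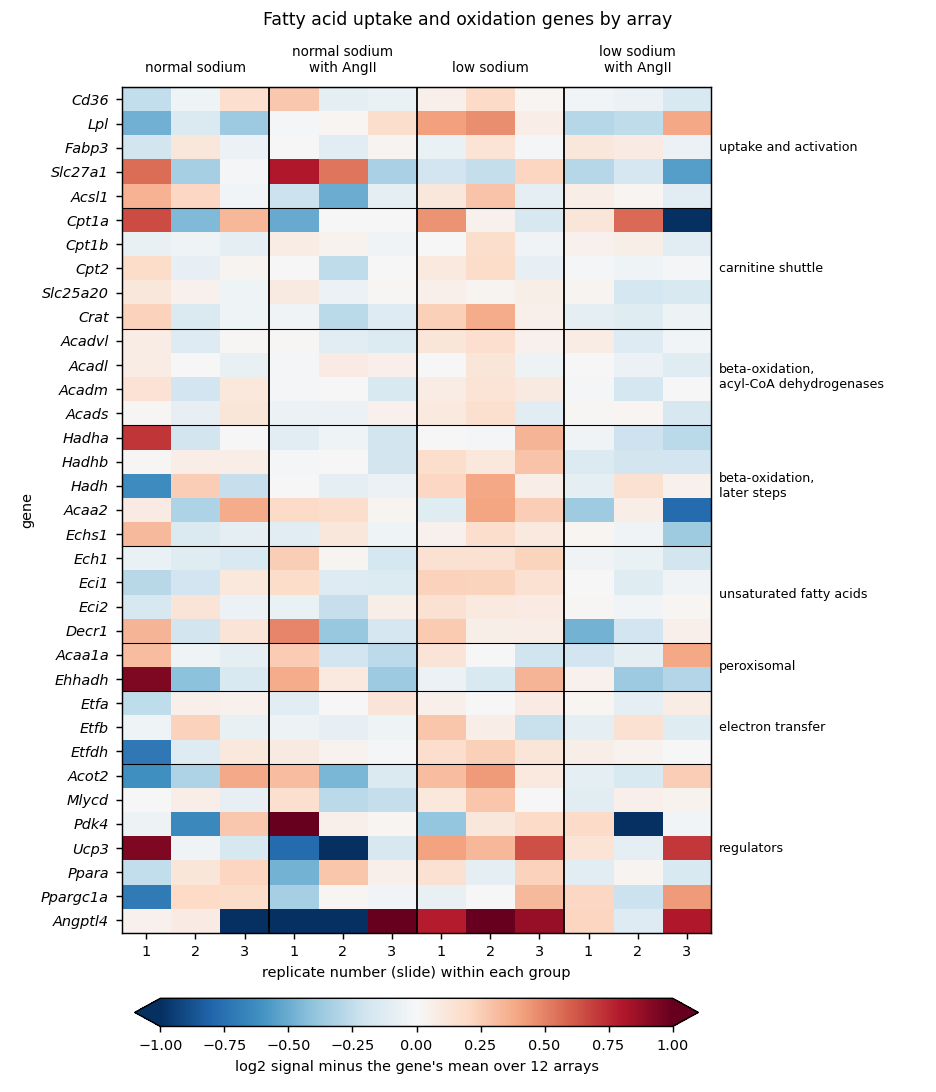
Heat map of the 35 genes in order of their step (vertical axis) on each of the 12 arrays (horizontal axis, by group and replicate number), coloured by log2 signal minus the gene's mean over 12 arrays, with colours capped at 1.00 in either direction. The low sodium columns are mostly red (per-array medians 0.08 to 0.15), and replicate 1 of normal sodium is mixed, with Etfdh, Hadh and Ppargc1a low and Hadha, Ehhadh and Ucp3 high.

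Compared with the low sodium group, low sodium with AngII had 32 of 35 genes lower and 3 higher, with a median difference of -0.18 against 0.00 over all probes. In 12 genes the infused arrays all lay below the uninfused ones, a pattern found in 2.71% of all probes, and in 0 genes above them (3.52%). At an unadjusted p under 0.05, 4 were lower (0.729% of all probes, 146 of 20020) and 0 higher (1.07%, 214 probes). On normal sodium, 14 genes were higher and 21 lower with AngII, with a median of -0.04 against -0.01 over all probes. There, 2 genes were higher and 3 lower without overlap (6.17% and 6.7% of all probes), and 0 were higher and 2 lower at p under 0.05 (3.64%, 729 probes, and 3.74%, 749 probes). On all 3 slides taken alone, 19 genes were lower with AngII on low sodium and 0 higher (7.88% and 9.75% of all probes), and on normal sodium 6 were lower and 2 higher (15.1% and 15.2%). Within slides 1, 2 and 3 the median for AngII on low sodium was -0.12, -0.22 and -0.07.

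Without infusion, low sodium exceeded normal sodium in 29 of 35 genes and was below it in 6, with a median of 0.11 against -0.02 over all probes. In 7 genes the low sodium arrays all lay above the normal sodium ones (4.91% of all probes) and in 0 below (6%). At p under 0.05, 4 were higher (2.86%, 572 probes) and 0 lower (4.32%, 865 probes). The median was 0.07, 0.24 and 0.04 within slides 1, 2 and 3, and 12 genes were higher on all 3 slides (12.8% of all probes) and 0 lower (15.7%). This count leaned on replicate 2: without the normal sodium array of that number, 13 genes were below 0, and without the low sodium array the median was 0.06. Without the normal sodium array of replicate 1 the median was 0.14, with 5 genes below 0. Under AngII, 16 genes were higher and 19 lower on low sodium, with a median of -0.01 against -0.01 over all probes. This balance depended on the processing: 26 genes were lower (median -0.08) with quantile normalization and 29 (median -0.09) with the authors' values. There, 1 gene was higher and 0 lower without overlap (12.2% and 10.4% of all probes), and 1 was higher and 1 lower at p under 0.05 (5.16%, 1034 probes, and 5.87%, 1176 probes). On all 3 slides, 1 was higher and 6 were lower (20.3% and 20.6% of all probes). These contrasts share arrays: the low sodium arrays enter both the contrast in which the genes were mostly higher and the contrast in which they were mostly lower, so those 2 counts are not separate observations.

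**Figure D2:**
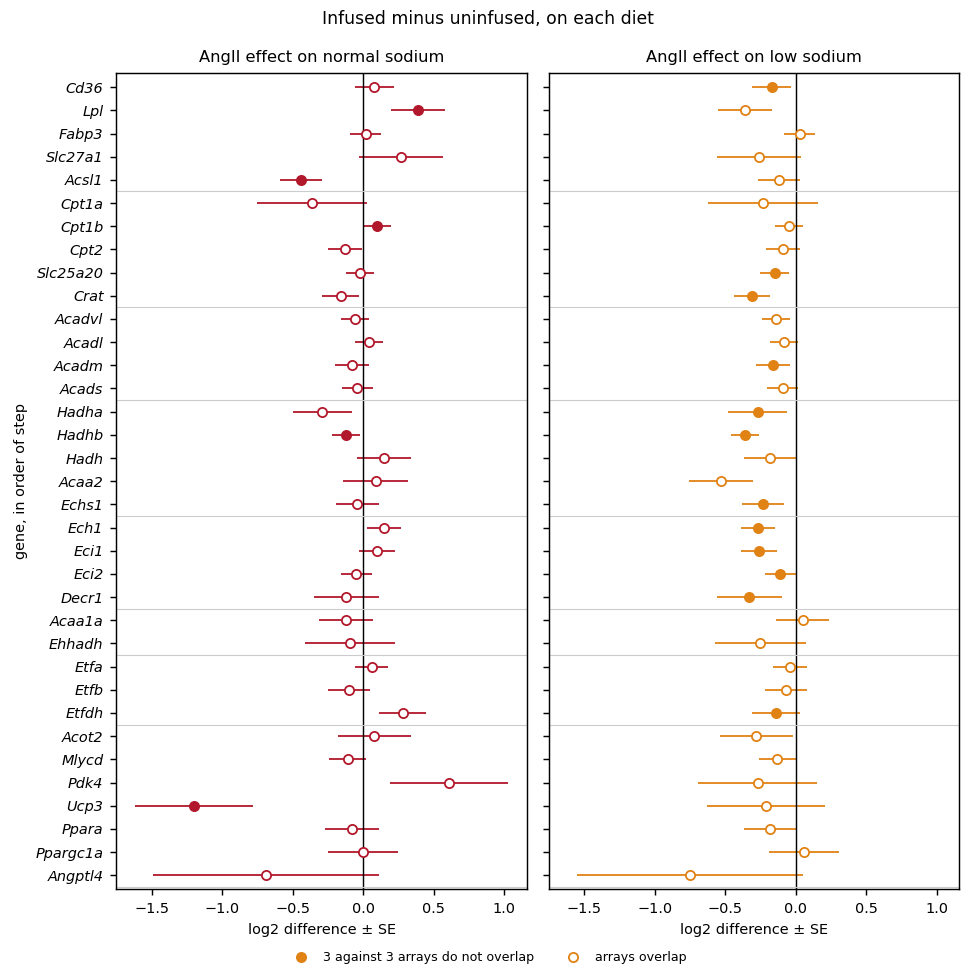
Log2 difference ± SE, infused minus uninfused, for each of the 35 genes (vertical axis, in order of step) on normal sodium (left) and low sodium (right); filled points are genes whose 3 infused and 3 uninfused arrays do not overlap. On low sodium 32 points lie left of 0 and 12 of those are filled, and on normal sodium the points lie on both sides, with Ucp3 lowest at -1.20.

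Release and uptake of fatty acids came first in the route. Lpl encodes lipoprotein lipase, the enzyme that frees fatty acids from circulating triglyceride. Lpl read 3.98, 4.32 and 4.10 on normal sodium, 4.45, 4.48 and 4.64 with AngII, 4.87, 4.93 and 4.53 on low sodium, and 4.18, 4.21 and 4.85 on low sodium with AngII. The normal sodium arrays lay below those of normal sodium with AngII and of low sodium without overlap, whereas low sodium with AngII overlapped all 3 other groups, its replicate 3 reaching the uninfused low sodium arrays. Low sodium without AngII was 1.56-fold higher than normal sodium (log2 difference 0.64 ± 0.19, adjusted p = 0.583, 95% interval 0.23 to 1.06), and the difference was 0.90, 0.60 and 0.42 within slides 1, 2 and 3. Without replicate 1 of normal sodium it was 0.56. AngII went with a higher Lpl signal on normal sodium (0.39 ± 0.19) and a lower one on low sodium (-0.36 ± 0.19), the latter -0.58 without replicate 3 of low sodium with AngII. The interaction (how far the AngII difference on low sodium exceeds the one on normal sodium) was -0.75 ± 0.27 (adjusted p = 0.848).

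Cd36, the membrane fatty acid translocase, read 6.0, 6.21 and 6.42 on normal sodium, 6.52, 6.15 and 6.18 with AngII, 6.30, 6.44 and 6.27 on low sodium, and 6.22, 6.19 and 6.10 on low sodium with AngII. Only between the low sodium groups did the arrays separate, by a log2 difference of -0.17 ± 0.14, and another Cd36 probe gave -0.23. Slc27a1, a fatty acid transport protein, read 3.54, 2.65 and 2.96 on normal sodium, 3.78, 3.52 and 2.66 with AngII, 2.79, 2.74 and 3.20 on low sodium, and 2.70, 2.81 and 2.43 on low sodium with AngII. It spread widely among the normal sodium arrays, infused or not, and overlapped between all groups. Under AngII it was 1.59-fold lower on low sodium (-0.67 ± 0.30, adjusted p = 0.447). Fabp3, the cytosolic fatty acid binding protein of heart muscle, stayed between 7.22 and 7.54 on all 12 arrays, and its 4 differences were between 0.02 and 0.07 with a standard error of 0.11.

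Acsl1 encodes the main long-chain acyl-CoA synthetase of heart, the step that activates fatty acids. Acsl1 read 6.71, 6.57 and 6.34 on normal sodium, 6.15, 5.87 and 6.27 with AngII, 6.48, 6.65 and 6.27 on low sodium, and 6.43, 6.38 and 6.25 on low sodium with AngII. The infused arrays lay below the uninfused ones on normal sodium and overlapped them on low sodium. AngII on normal sodium gave a 1.36-fold lower signal (-0.44 ± 0.15, adjusted p = 0.65), at -0.57, -0.70 and -0.07 within slides 1, 2 and 3 and -0.36 without replicate 1 of normal sodium. On low sodium the AngII difference was -0.12 ± 0.15, and the interaction of 0.33 ± 0.21 was smaller than 2 standard errors.

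**Figure D3:**
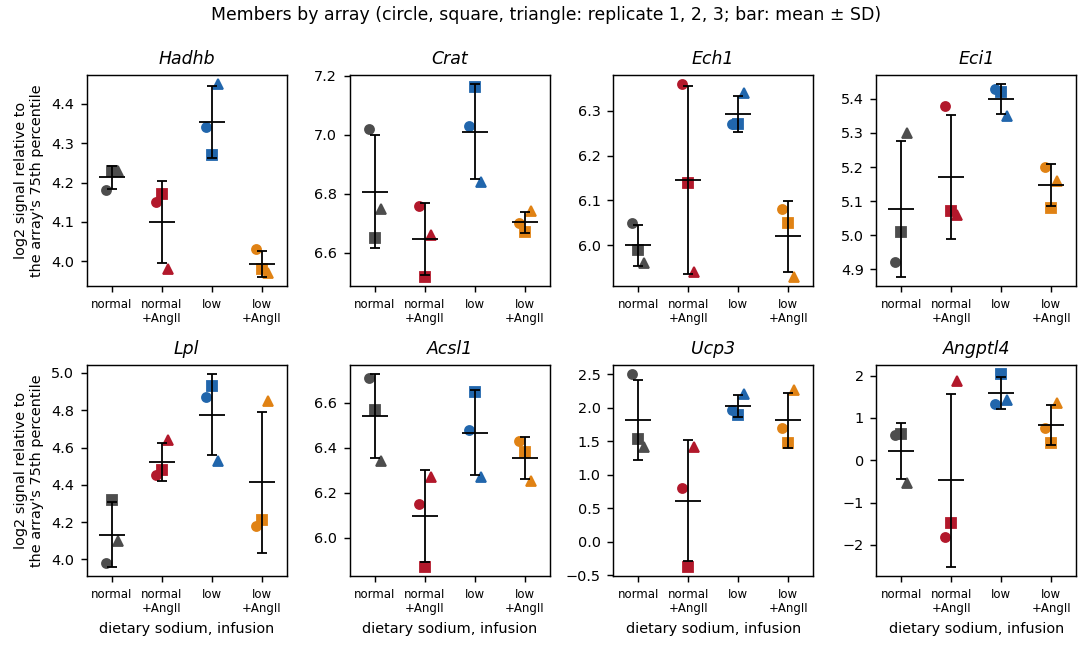
Log2 signal relative to the array's 75th percentile (vertical axes, each with its own range) for 8 genes by group (horizontal axes), with circles, squares and triangles for replicates 1, 2 and 3 and bars for the mean ± SD. Hadhb, Crat, Ech1 and Eci1 show low sodium arrays above low sodium arrays with AngII, while Lpl, Ucp3 and Angptl4 show infused arrays spread far from each other within a group.

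The carnitine shuttle came next. Cpt1b, the muscle form of the outer-membrane carnitine palmitoyltransferase that gates entry into mitochondria, read 6.13, 6.16 and 6.11 on normal sodium, 6.28, 6.24 and 6.17 with AngII, 6.20, 6.38 and 6.17 on low sodium, and 6.25, 6.26 and 6.10 on low sodium with AngII. Its normal sodium arrays lay just below both neighbouring groups. The differences were 0.10 ± 0.10 for AngII on normal sodium and 0.12 ± 0.10 for low sodium without AngII, and a dimmer Cpt1b probe gave 0.16 and -0.04. Cpt1a, the form best known from liver, read 1.41, 0.32 and 1.09 on normal sodium, 0.25, 0.75 and 0.75 with AngII, 1.21, 0.80 and 0.60 on low sodium, and 0.88, 1.32 and -0.29 on low sodium with AngII. Every group overlapped every other for Cpt1a, and the standard error of its differences was 0.39.

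Slc25a20, the translocase that exchanges acylcarnitine for carnitine across the inner membrane, read 4.17, 4.10 and 4.02 on normal sodium, 4.15, 4.00 and 4.07 with AngII, 4.11, 4.09 and 4.12 on low sodium, and 4.09, 3.88 and 3.91 on low sodium with AngII. The low sodium groups just failed to overlap, with replicate 1 of the infused group level with the lowest uninfused array at this precision (-0.15 ± 0.10). Crat, the carnitine acetyltransferase that buffers mitochondrial acetyl-CoA, read 7.02, 6.65 and 6.75 on normal sodium, 6.76, 6.52 and 6.66 with AngII, 7.03, 7.16 and 6.84 on low sodium, and 6.70, 6.67 and 6.74 on low sodium with AngII. All 3 infused low sodium arrays lay below all 3 uninfused ones, a 1.24-fold lower signal (-0.31 ± 0.13, adjusted p = 1). On normal sodium the AngII difference in Crat was -0.16 ± 0.13 with overlapping arrays (-0.05 without replicate 1 of normal sodium), and the mean AngII effect over both diets was -0.23 ± 0.09. Cpt2, the inner-membrane transferase, differed by -0.13 to 0.06 in the 4 simple contrasts, each with a standard error of 0.12.

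The acyl-CoA dehydrogenases catalyse the first step of each turn of beta-oxidation, each for a range of chain lengths. All 4 were lower with AngII on low sodium (median -0.11) and higher on low sodium without AngII (median 0.05), and none reached p under 0.05 in any contrast. Acadvl, for very long chains, read 6.09, 5.89 and 6.03 on normal sodium, 6.03, 5.91 and 5.88 with AngII, 6.14, 6.18 and 6.06 on low sodium, and 6.09, 5.89 and 5.99 on low sodium with AngII. Acadl, for long chains, read 7.76, 7.68 and 7.61 on normal sodium, 7.67, 7.77 and 7.74 with AngII, 7.68, 7.81 and 7.64 on low sodium, and 7.69, 7.63 and 7.57 on low sodium with AngII. Acadm, for medium chains, read 6.89, 6.55 and 6.85 on normal sodium, 6.72, 6.75 and 6.59 with AngII, 6.82, 6.88 and 6.83 on low sodium, and 6.73, 6.57 and 6.74 on low sodium with AngII. For Acadm the infused low sodium arrays lay below the uninfused ones (-0.16 ± 0.12), while Acadvl and Acadl overlapped in all 4 simple contrasts. Acads, for short chains, differed by -0.09 to 0.03 with a standard error of 0.11.

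The later steps of beta-oxidation had the lowest step median for AngII on low sodium, at -0.27, shared with the enzymes for unsaturated fatty acids. Hadha and Hadhb encode the alpha and beta subunits of the mitochondrial trifunctional protein, which carries out hydration, dehydrogenation and thiolysis of long-chain acyl-CoA. They lie head to head on rat chromosome 6, and in RefSeq (build GRCr8) the windows from 250 bases before to 50 bases after their start sites share 200 bases. Both windows are shown 5′ to 3′ on their gene's strand, with the shared bases in capitals; the Hadha window is chr6:31907551-31907850 on the plus strand and the Hadhb window is chr6:31907451-31907750 on the minus strand.
Hadha: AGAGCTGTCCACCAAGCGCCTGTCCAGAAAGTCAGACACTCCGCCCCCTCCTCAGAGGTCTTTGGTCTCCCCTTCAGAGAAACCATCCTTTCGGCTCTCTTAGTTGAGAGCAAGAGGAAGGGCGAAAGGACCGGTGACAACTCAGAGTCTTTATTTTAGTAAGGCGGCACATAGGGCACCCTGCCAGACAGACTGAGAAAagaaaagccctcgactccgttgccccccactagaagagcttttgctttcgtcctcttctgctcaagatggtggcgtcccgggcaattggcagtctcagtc
Hadhb: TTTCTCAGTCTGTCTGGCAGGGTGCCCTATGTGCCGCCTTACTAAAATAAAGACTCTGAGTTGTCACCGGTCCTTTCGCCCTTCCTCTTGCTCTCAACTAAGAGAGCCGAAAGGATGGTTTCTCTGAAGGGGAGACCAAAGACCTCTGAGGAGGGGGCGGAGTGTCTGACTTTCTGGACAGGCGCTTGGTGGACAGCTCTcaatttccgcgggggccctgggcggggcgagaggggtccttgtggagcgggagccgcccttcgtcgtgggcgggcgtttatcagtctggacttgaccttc

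Hadhb read 4.18, 4.23 and 4.23 on normal sodium, 4.15, 4.17 and 3.98 with AngII, 4.34, 4.27 and 4.45 on low sodium, and 4.03, 3.98 and 3.97 on low sodium with AngII. Its low sodium arrays were the highest and its infused low sodium arrays nearly the lowest, and the infused arrays lay below the uninfused ones on both diets. AngII on low sodium gave a 1.28-fold lower signal (-0.36 ± 0.10, adjusted p = 1, 95% interval -0.58 to -0.15), the smallest p of the 35 genes in any contrast and rank 33 among all probes in this one. The difference was -0.31, -0.29 and -0.48 within slides 1, 2 and 3. It lay between -0.48 and -0.29 over 29 settings of processing and arrays, some of which could not change it. On normal sodium the AngII difference was -0.12 ± 0.10, the mean over both diets -0.24 ± 0.07 (adjusted p = 1), and the interaction -0.25 ± 0.14.

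Hadha read 4.88, 3.98 and 4.17 on normal sodium, 4.05, 4.12 and 3.98 with AngII, 4.16, 4.14 and 4.50 on low sodium, and 4.13, 3.96 and 3.89 on low sodium with AngII. Replicate 1 of normal sodium was the highest of all 12, and the 2 low sodium groups did not overlap. AngII on low sodium gave -0.27 ± 0.21 (another Hadha probe gave -0.23) and AngII on normal sodium -0.29 ± 0.21, the latter -0.02 without replicate 1 of normal sodium. Across the 12 arrays Hadha and Hadhb had a Pearson's r of 0.48 (permutation p = 0.12) and a Spearman's rho of 0.75 (permutation p = 0.00598), both 2-sided with 100000 resamples and the only such relation computed. Without the 2 arrays farthest from the Hadha median, replicate 1 of normal sodium and replicate 3 of low sodium, r was 0.70 (permutation p = 0.0288). The permutations ignored group and slide, and the 2 arrays were picked by their Hadha values. These p-values therefore do not measure a relation between the genes apart from group and slide. For deviations from group means over all 12 arrays, r was 0.19 and rho 0.30. These include replicate 1 of normal sodium, whose Hadha value lay far from its group, and were not computed without it. Whether the relation follows the group differences is therefore not settled.

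Echs1, the short-chain enoyl-CoA hydratase, was lower on each infused low sodium array than on any uninfused one (-0.23 ± 0.15). Hadh, the medium- and short-chain hydroxyacyl-CoA dehydrogenase, read 6.62, 7.49 and 7.02 on normal sodium, 7.25, 7.16 and 7.19 with AngII, 7.45, 7.63 and 7.31 on low sodium, and 7.15, 7.40 and 7.29 on low sodium with AngII. Replicate 1 of normal sodium was the lowest by a wide margin, and the diets overlapped through replicate 2. Low sodium without AngII gave 0.42 ± 0.19, and 0.21 without replicate 1 of normal sodium. Acaa2, the mitochondrial thiolase that closes each turn, read 5.56, 5.17 and 5.85 on normal sodium, 5.67, 5.66 and 5.51 with AngII, 5.36, 5.88 and 5.73 on low sodium, and 5.13, 5.55 and 4.71 on low sodium with AngII. The infused low sodium arrays were spread over most of the range and overlapped the uninfused ones. AngII on low sodium gave -0.53 ± 0.23 (adjusted p = 1), at -0.23, -0.33 and -1.02 within slides 1, 2 and 3, and -0.32 without replicate 3 of low sodium with AngII.

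The enzymes that bring double bonds of unsaturated fatty acids into position for beta-oxidation were the 1 step in which all members separated the low sodium groups. In 4 of 4 the infused arrays lay below the uninfused ones (2.71% of all probes), in part by a narrow gap. Ech1, a dienoyl-CoA isomerase, read 6.05, 5.99 and 5.96 on normal sodium, 6.36, 6.14 and 5.94 with AngII, 6.27, 6.27 and 6.34 on low sodium, and 6.08, 6.05 and 5.93 on low sodium with AngII. The low sodium arrays were tight and lay above both the normal sodium arrays and the infused low sodium arrays. Low sodium without AngII gave 0.29 ± 0.12 (adjusted p = 0.649) and AngII on low sodium -0.27 ± 0.12 (adjusted p = 1). The interaction was -0.42 ± 0.17 (adjusted p = 0.848), at -0.51, -0.37 and -0.38 within slides 1, 2 and 3.

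Eci1, an enoyl-CoA isomerase, read 4.92, 5.01 and 5.30 on normal sodium, 5.38, 5.07 and 5.06 with AngII, 5.43, 5.42 and 5.35 on low sodium, and 5.20, 5.08 and 5.16 on low sodium with AngII. Again the low sodium arrays lay above both neighbours, while both normal sodium groups were wider. The differences were 0.33 ± 0.13 for low sodium without AngII (adjusted p = 0.644), or 0.25 without replicate 1 of normal sodium, and -0.26 ± 0.13 for AngII on low sodium. Eci2, another enoyl-CoA isomerase, and Decr1, a dienoyl-CoA reductase, gave -0.11 ± 0.11 and -0.33 ± 0.23 for AngII on low sodium. The lowest uninfused and highest infused arrays there were close, at 4.88 and 4.82 for Eci2 and 4.90 and 4.89 for Decr1. No other contrast separated the groups for either gene.

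**Figure D4:**
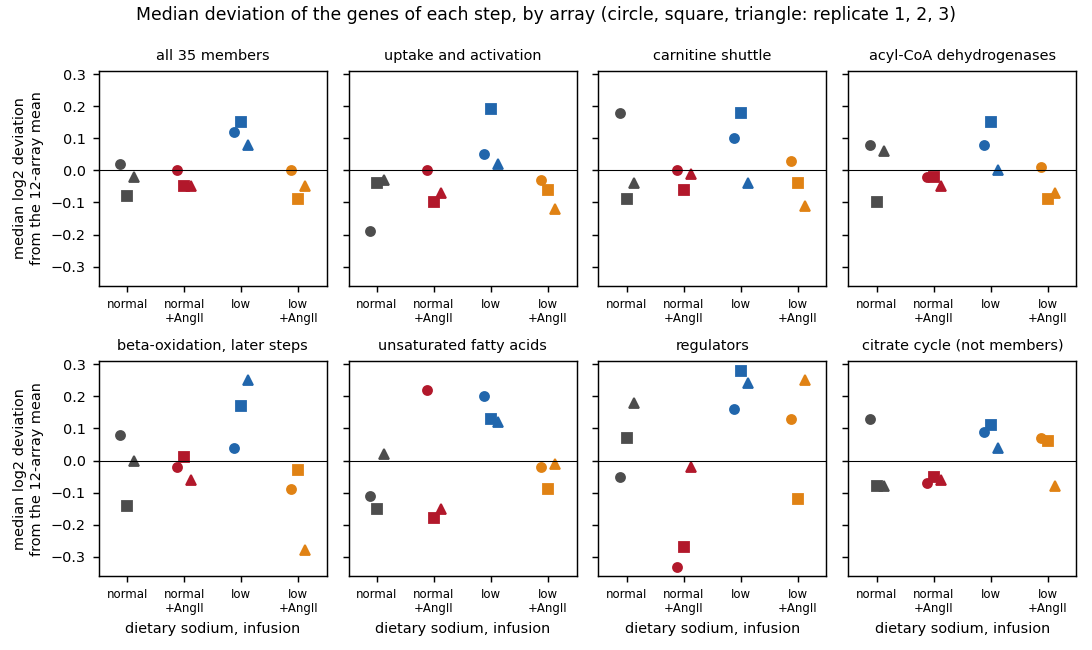
Median deviation of a step's genes from their 12-array means (vertical axis, log2) by group (horizontal axis) with 1 point per array, for all 35 genes, for the 6 steps with at least 4 genes and for 17 citrate cycle genes. The low sodium points of all 35 genes, at 0.08 to 0.15, lie above the other 9 arrays, and those of the unsaturated fatty acid step, at 0.12 to 0.20, overlap normal sodium with AngII through its replicate 1.

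The 3 electron transfer genes had a median of 0.10 for low sodium without AngII, the lowest being Etfb at 0.00. All 3 were below 0 for AngII on low sodium (median -0.07), and both peroxisomal genes were below 0 for low sodium without AngII (median -0.08). Etfb, the beta subunit of the electron transfer flavoprotein that collects electrons from the acyl-CoA dehydrogenases, read 6.10, 6.37 and 6.07 on normal sodium, 6.09, 6.06 and 6.10 with AngII, 6.42, 6.21 and 5.92 on low sodium, and 6.04, 6.29 and 6.02 on low sodium with AngII. Its groups overlapped throughout, and Etfa, the alpha subunit, differed by -0.04 to 0.10 with a standard error of 0.12. Etfdh passes these electrons to ubiquinone, and read 3.21, 3.79 and 4.03 on normal sodium, 4.01, 3.96 and 3.90 with AngII, 4.10, 4.16 and 4.04 on low sodium, and 3.98, 3.96 and 3.93 on low sodium with AngII. The low sodium arrays lay above both the normal sodium and the infused low sodium arrays, with replicate 1 of normal sodium far below the rest. Low sodium without AngII gave 0.42 ± 0.17 (adjusted p = 0.658), at 0.89, 0.37 and 0.00 within slides 1, 2 and 3, and 0.19 without replicate 1 of normal sodium.

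Acaa1a, the peroxisomal thiolase, read 4.06, 3.71 and 3.65 on normal sodium, 4.00, 3.56 and 3.49 with AngII, 3.88, 3.75 and 3.55 on low sodium, and 3.56, 3.65 and 4.14 on low sodium with AngII. Ehhadh, the peroxisomal bifunctional enzyme, read -1.0, -2.34 and -2.08 on normal sodium, -1.56, -1.83 and -2.29 with AngII, -1.99, -2.08 and -1.59 on low sodium, and -1.89, -2.29 and -2.22 on low sodium with AngII. All groups overlapped for both, and the largest difference with all arrays was -0.25 ± 0.32. For AngII on normal sodium Ehhadh gave -0.09, and 0.32 without replicate 1 of normal sodium, its highest array. The 2 Acaa1a probes differed in sign for AngII on low sodium, at 0.05 and -0.07.

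Among the regulators, 7 of 7 were above 0 for low sodium without AngII, with a median of 0.19 (Ppargc1a was at -0.11 without replicate 1 of normal sodium), and 6 of 7 below 0 for AngII on low sodium, with a median of -0.21. The nuclear receptor gene Ppara read -0.46, -0.09 and 0.00 on normal sodium, -0.69, 0.06 and -0.16 with AngII, -0.06, -0.31 and 0.02 on low sodium, and -0.32, -0.19 and -0.37 on low sodium with AngII. Ppargc1a, the gene of PGC-1-alpha, read -1.59, -0.69 and -0.70 on normal sodium, -1.22, -0.87 and -0.91 with AngII, -0.96, -0.89 and -0.56 on low sodium, and -0.68, -1.10 and -0.46 on low sodium with AngII. The groups overlapped for both transcripts, and no Ppara difference in the 4 simple contrasts exceeded its standard error. For AngII on normal sodium Ppargc1a gave 0.00 ± 0.25, or -0.30 without replicate 1 of normal sodium, its lowest array.

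Pdk4, the kinase that shuts down pyruvate dehydrogenase, read -0.49, -1.09 and -0.17 on normal sodium, 0.89, -0.39 and -0.42 with AngII, -0.83, -0.33 and -0.25 on low sodium, and -0.25, -1.50 and -0.47 on low sodium with AngII. Replicate 1 of normal sodium with AngII was the highest and replicate 2 of low sodium with AngII the lowest, and all groups overlapped. AngII on normal sodium gave 0.61 ± 0.42, and 0.18 without that highest array. Under AngII, Pdk4 was -0.76 ± 0.42 on low against normal sodium, -0.33 without that highest array and -0.38 without the lowest. Acot2, a mitochondrial acyl-CoA thioesterase, read 3.11, 3.41 and 4.10 on normal sodium, 4.03, 3.26 and 3.58 with AngII, 4.03, 4.15 and 3.82 on low sodium, and 3.62, 3.57 and 3.97 on low sodium with AngII. Its arrays overlapped in all contrasts, the largest difference being 0.46 ± 0.26 for low sodium without AngII, or 0.24 without replicate 1 of normal sodium. A dimmer Acot2 probe gave 0.15 there. For low sodium with AngII the 2 Acot2 probes differed in sign, at 0.09 and -0.37. Mlycd, the malonyl-CoA decarboxylase that relieves the block on carnitine palmitoyltransferase, gave 0.13 ± 0.13 for low sodium without AngII and -0.13 ± 0.13 for AngII on low sodium.

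Ucp3, a mitochondrial uncoupling protein of muscle whose transcript follows fatty acid supply, read 2.50, 1.53 and 1.41 on normal sodium, 0.80, -0.37 and 1.41 with AngII, 1.97, 1.90 and 2.21 on low sodium, and 1.70, 1.47 and 2.27 on low sodium with AngII. Normal sodium with AngII was the low group, with replicate 3 level with the lowest normal sodium array at this precision. AngII on normal sodium gave a 2.30-fold lower signal (-1.20 ± 0.42, adjusted p = 0.65, 95% interval -2.13 to -0.26). It was -1.70, -1.90 and 0.00 within slides 1, 2 and 3, -0.71 without replicate 2 of the infused group and -0.86 without replicate 1 of normal sodium. Under AngII, low sodium exceeded normal sodium 2.30-fold without overlap (1.20 ± 0.42, adjusted p = 0.365), and 0.71 on the log2 scale without the same replicate 2. On low sodium the AngII difference was -0.21 ± 0.42, and the interaction was 0.99 ± 0.60.

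Angptl4, a secreted inhibitor of lipoprotein lipase, varied most of all 35 genes: it read 0.59, 0.63 and -0.54 on normal sodium, -1.82, -1.47 and 1.88 with AngII, 1.33, 2.03 and 1.42 on low sodium, and 0.76, 0.42 and 1.35 on low sodium with AngII. The low sodium arrays all lay above the normal sodium ones, and replicate 3 of normal sodium with AngII was over 3 log2 units above the other infused arrays of that diet. Low sodium without AngII gave 2.58 times the signal (1.37 ± 0.80, adjusted p = 0.733), and the mean low sodium effect was 1.34 ± 0.56 (adjusted p = 0.366). AngII on normal sodium gave -0.69 ± 0.80 with all arrays and -1.87 without that replicate 3.

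**Figure D5:**
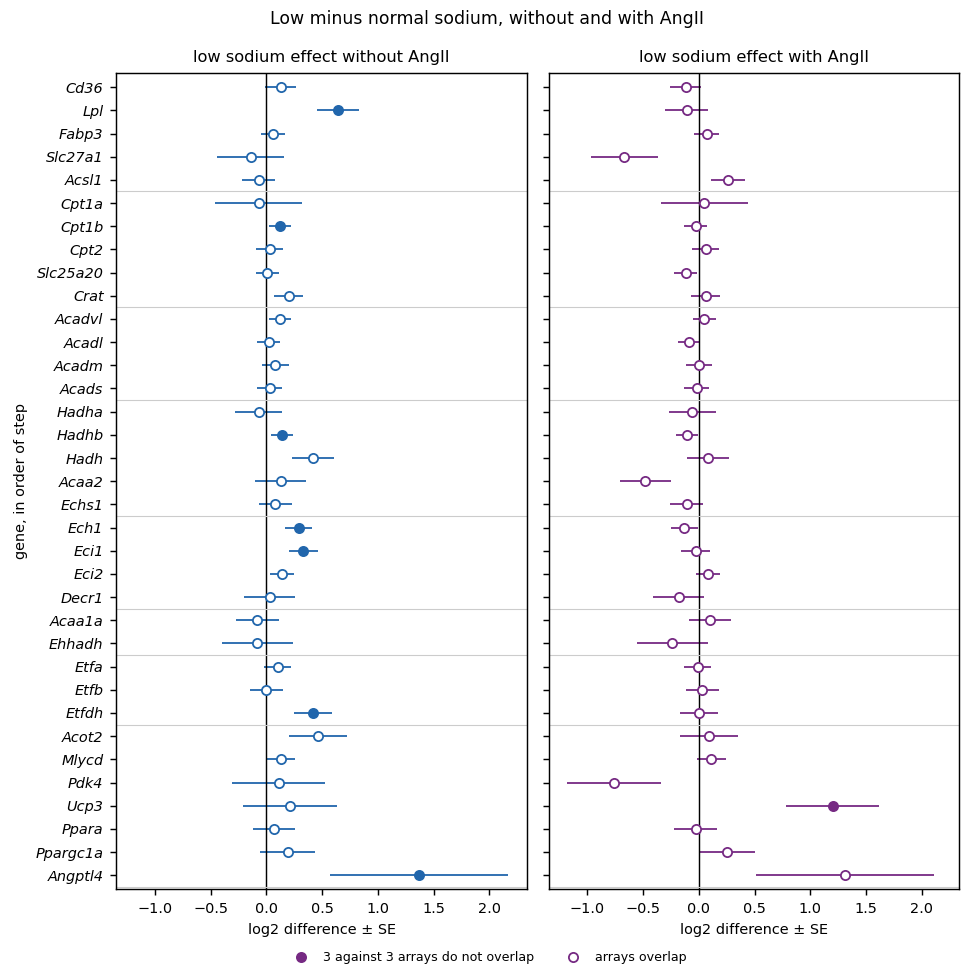
Log2 difference ± SE, low minus normal sodium, for each of the 35 genes (vertical axis, in order of step) without AngII (left) and with AngII (right); filled points are genes whose 3 low and 3 normal sodium arrays do not overlap. Without AngII 29 points lie right of 0 and 7 are filled, and with AngII only Ucp3, at 1.20, is filled.

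Over both infusion states, 25 of 35 genes were higher and 10 lower on low sodium, with a median of 0.04, and 2 were higher at p under 0.05 (4.9%, 980 probes) and 0 lower (7.66%, 1534 probes). On all 3 slides 9 were higher and 3 lower (19% and 22.3% of all probes). Over both diets, 8 were higher and 27 lower with AngII, with a median of -0.08, and 4 were lower at p under 0.05 (1.06%, 212 probes) and 0 higher (1.83%, 366 probes). On all 3 slides 10 were lower and 0 higher (9.96% and 9.63% of all probes). The 4 at p under 0.05 were Hadhb, Crat, Acsl1 (-0.28 ± 0.11) and Ucp3 (-0.71 ± 0.30). The interaction was below 0 in 26 genes and above 0 in 9, with a median of -0.12 against 0.01 over all probes. It reached p under 0.05 in 2 genes below 0, Lpl and Ech1 (2.26% of all probes, 453), and in 0 above (2.82%, 564 probes). On all 3 slides it was below 0 in 10 genes and above 0 in 2 (13.2% and 15.3% of all probes).

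Promoter windows of 300 bases were found in RefSeq (GRCr8) for 29 of the 35 genes, and Lpl, Cpt1b, Acadl, Acaa2, Ech1 and Decr1 had no entry. PPAR-alpha pairs with the retinoid X receptor on direct repeats of AGGTCA with 1 base between them. That repeat, AGGTCA, any base N and AGGTCA again, searched on both strands, was in 0 of the 29 windows (0.0538% of all 33469 promoter windows), and the looser repeat of AGGNCA with the same spacing was in 0 (0.415%). The estrogen-related receptor element TCAAGGTCA was also in 0 (0.433%). The single element AGGTCA, which the repeat and this element contain and which was added after the sequences were seen, was in 7 windows (24.1%, against 16.2% of all): those of Acadvl, Echs1, Eci1, Eci2, Hadhb, Slc27a1 and Ucp3. Both Acadvl and Ucp3 hold the element at 2 places. Acadvl, with it at bases -169 to -164 and -17 to -12, had an AngII difference of only -0.06 on normal sodium. A link between the element and the differences was not tested. The Ucp3 window is shown because this gene had the largest AngII difference on normal sodium. Its elements are in capitals, at bases -155 to -150 and -50 to -45 from the start site. The window is chr1:164227660-164227959 on the plus strand (GRCr8), 5′ to 3′.
Ucp3: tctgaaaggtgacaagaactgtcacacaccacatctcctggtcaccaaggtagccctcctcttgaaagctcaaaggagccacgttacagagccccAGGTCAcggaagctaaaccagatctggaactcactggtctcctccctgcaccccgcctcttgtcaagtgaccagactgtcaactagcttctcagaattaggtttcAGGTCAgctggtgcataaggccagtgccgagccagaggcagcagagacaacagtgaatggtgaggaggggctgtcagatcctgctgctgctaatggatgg

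In the Hadhb window above, the element lies on the opposite strand at bases 42 to 47 after the start, outside the bases shared with Hadha. The member windows had a median GC content of 59.7% (all windows 51.7%) and a median observed-to-expected CpG ratio of 0.617 (all 0.392).

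A list of 109 other genes, 98 of them tested, covered linked pathways as well as further genes of uptake and oxidation. It took in triglyceride storage, peroxisomes, malonyl-CoA and AMP kinase, ketone bodies, nuclear receptors, pyruvate dehydrogenase and the citrate cycle. The median of the 98 was -0.04 for AngII on low sodium, where 4 (4.08%, against 0.729% of all probes) were lower and 0 (1.07% of all probes) higher at p under 0.05. For AngII on normal sodium it was -0.03, with 5 lower (5.1%, against 3.74%) and 2 higher (2.04%, against 3.64%). For low sodium without AngII it was 0.08, with 5 higher (5.1%, against 2.86%) and 2 lower (2.04%, against 4.32%). With AngII it was 0.05, with 9 higher (9.18%, against 5.16%) and 3 lower (3.06%, against 5.87%). Without overlap, 11 of the 98 were lower with AngII on low sodium (11.2%, against 2.71% of all probes) and 3 higher (3.06%, against 3.52%). For low sodium without AngII, 15 were higher without overlap (15.3%, against 4.91%) and 2 lower (2.04%, against 6%). The 17 citrate cycle genes of this list, a mitochondrial pathway fed by beta-oxidation, had a median of -0.07 for AngII on low sodium, with 16 below 0. For low sodium without AngII their median was 0.08, with 11 above 0. Without overlap, 3 of the 17 were lower in the first of these contrasts (17.6%) and 4 higher in the second (23.5%). Klf15, a transcription factor that promotes lipid use in heart, was higher on low sodium without AngII (0.59 ± 0.18, adjusted p = 0.588) and with it (0.59 ± 0.18, adjusted p = 0.318), without overlap in either case. Oxct1, the enzyme with which heart burns ketone bodies, gave 0.28 ± 0.10 and 0.27 ± 0.10 in the same contrasts, also without overlap. Pparg, another PPAR gene, was lower with AngII without overlap on normal sodium (-0.30 ± 0.10, adjusted p = 0.65) and on low sodium (-0.26 ± 0.10, adjusted p = 1). Of the 9 pyruvate dehydrogenase genes tested, 6 were higher and 3 lower with AngII on normal sodium, with a median of 0.01. Without overlap, 2 were higher (6.17% of all probes) and 0 lower (6.7%). The extremes of this list were the kinase gene Pdk3 (0.54 ± 0.17) and the phosphatase gene Pdp1 (-0.64 ± 0.21). Interactions of Pdk3 and Pdp1 were -0.67 ± 0.24 and 0.85 ± 0.28 (limma adjusted p = 0.848 for both), against a list median of -0.02. None of these genes passed limma's adjusted threshold.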

How the data were processed

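Left ventricle RNA of 12 samples was measured on Agilent arrays of 1 colour. Per the file headers, the deposited signal intensities were made by Agilent Feature Extraction 10.7.3.1, which subtracted background but did not scale between arrays. Each spot carries 0 or 1 flags, deposited as scores, for signal well above background, saturation, non-uniformity and being a population outlier. The submitters' processing notes name version 11.0.1.1 instead, with R 3.3.04 and limma. The authors' own table holds log2 values of 20438 probes, normalised by a method not given in the sources used here.

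Control spots (1377) and spots flagged as non-uniform or as population outliers (296 to 421 per array) were left out. Copies of a probe (1390 probes were printed 10 times) were averaged. The log2 processed intensity was reduced by the array's 75th percentile over the 30367 probes. A probe was tested if, in at least 0.5 of its spots, it was well above background on all 3 arrays of at least 1 group (20020 probes). Probes were named through RefSeq (assembly GRCr8, used for names and promoter windows), and the brightest of all probes of a gene, tested or not, stood for it. limma 3.58.1 in R 4.3.3, with the data.table package (version 1.17.8), fitted 1 mean per group over 12 arrays, with a prior of 2.62 degrees of freedom, and p-values were adjusted over all probes tested (Benjamini-Hochberg). The number of arrays limits the precision.

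The members and lists were chosen with earlier results of these data known. All 35 genes are named, with the value of every array for the smallest p of each step in each simple contrast and for a fixed set of key genes. Samples of the same replicate number share a slide, per the file headers. Correlations of their deviations from group means were above 0.1 in 17 of 18 pairs (0.333 to 0.432 for slide 1, 0.119 to 0.307 for slide 2 and 0.046 to 0.229 for slide 3). Alternatives covered background correction, scaling, the authors' values, the dim-probe filter, the probe of a gene, array weights, the variance model, slide as a block, each slide alone and leaving out arrays. The percentile over spots in place of probes was added after the data were seen.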

Additional observations from a re-analysis of the deposited data

How the results depend on the processing

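None of the 35 genes passed limma's adjusted threshold under any alternative with a test, and the alternatives were not tabulated for the other genes listed. Over 29 settings the median of the 35 genes stayed below 0 for AngII on low sodium (-0.22 to -0.07), for the mean AngII effect (-0.14 to -0.05) and for the interaction (-0.22 to -0.08), and above 0 for low sodium without AngII (0.04 to 0.24). It crossed 0 for AngII on normal sodium (-0.14 to 0.02), low sodium with AngII (-0.09 to 0.03) and the mean low sodium effect (-0.01 to 0.12). The slide block, the variance model and the dim-probe filters leave each gene's difference unchanged, so those settings could not move a median. The cause of the shifts below was not tested.

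The number of probes called, 0 in every contrast, became 5 for AngII on normal sodium, 3 for low sodium with AngII and 4 for the mean low sodium effect with normexp background correction, and 1 for low sodium with AngII with quantile normalization. The authors' values gave 5 for AngII on normal sodium and 2 for low sodium with AngII, no filter on dim probes 1 for the mean low sodium effect, and probes well above background on all 12 arrays 3 for AngII on normal sodium and 4 for low sodium with AngII. Array weights gave 3 for AngII on low sodium, 150 for low sodium with AngII and 137 for the mean low sodium effect, and a robust variance trend 4 for AngII on normal sodium, 5 for low sodium with AngII and 2 for the mean low sodium effect.

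With quantile normalization the member median was 0.02 for AngII on normal sodium, -0.08 for low sodium with AngII, 0.00 for the mean low sodium effect (17 genes below 0) and -0.17 for the interaction. With the authors' values these were 0.02, -0.09 (29 genes below 0), -0.01 (18 below 0) and -0.22. Centring on the median of tested probes gave 0.03 for low sodium with AngII. The percentile over spots, chosen after seeing the data, gave -0.06 for low sodium with AngII, 16 genes below 0 for the mean low sodium effect and -0.16 for the interaction. Slide 1 alone gave -0.12 for AngII on low sodium, 0.07 for low sodium without AngII (15 genes below 0) and 16 genes below 0 for the mean low sodium effect. Slide 2 alone gave -0.22 for AngII on low sodium, 0.12 for the mean low sodium effect, -0.14 for the mean AngII effect and -0.19 for the interaction, and slide 3 alone -0.14 for AngII on normal sodium and -0.07 for AngII on low sodium.

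Leaving out single arrays or slides, the probes called ranged from 0 to 9 for AngII on normal sodium, 0 to 1 for low sodium without AngII, 0 to 3 for low sodium with AngII and 0 to 23 for the mean low sodium effect. The member median ranged from -0.04 to 0.00 for AngII on normal sodium, -0.19 to -0.13 for AngII on low sodium, 0.06 to 0.14 for low sodium without AngII, 0.02 to 0.09 for the mean low sodium effect and -0.16 to -0.08 for the interaction. Genes below 0 for low sodium without AngII ranged from 4 to 14. With slide (the replicate number) as a block, 0 probes were called in each contrast. The member medians were -0.04, -0.18, 0.11 and -0.01 in the 4 simple contrasts. A slide held 1 array of each group, so the block could not change these medians.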
